A study of Mus musculus with 12 samples.

Results

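The subject here is the set of glucocorticoid receptor (GR) binding sites that were called when mouse hepatoma cells received tumour necrosis factor (TNF) before dexamethasone (Dex), and that were not called with Dex alone. Chromatin immunoprecipitation followed by sequencing (ChIP-seq) for GR had been run on 11 libraries, each with its own peak list. Peaks of all 11 lists that shared at least 1 bp were merged into 47493 regions. A region belonged to the set when 3 of 3 TNFDEX libraries and 0 of 3 DEX libraries held a peak in it, whatever the other groups showed. This gave 233 regions, 0.491% of all merged regions. The opposite pattern, 3 of 3 DEX and 0 of 3 TNFDEX libraries, gave 22 regions (0.0463%). The 233 sites were thus chosen by the measured peak calls in DEX and TNFDEX. Their TNFDEX levels and their absence in DEX are a description and are not tested.

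The cells were BWTG3, a mouse hepatoma-derived line, kept for 24 h without serum in every group. For every group 10% serum is listed as well. The groups were NI (3 libraries, taken as untreated because the label names no agent), DEX (3 libraries, 1 µM Dex), TNF (2 libraries, 1000 U/ml TNF) and TNFDEX (3 libraries, the same TNF dose given 1 h before the same Dex dose), with 3 h of stimulation in all for the treated groups. If those 3 h include the 1 h of TNF alone, Dex acted for less time in TNFDEX than in DEX. Dex exposure would then differ along with TNF, and the design could not tell them apart. All groups share a single line, so nothing here extends to other liver cells. The design text calls the replicates biological. The series concerns resistance to glucocorticoids and asks how TNF alters where GR binds.

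GR is a nuclear receptor that moves to DNA when a glucocorticoid such as Dex binds it. It contacts palindromic response elements directly and can also sit beside other factors, among them AP-1, C/EBP and NF-kB. TNF activates NF-kB and MAP kinases, and in hepatocytes such signals, together with glucocorticoids, induce acute phase plasma proteins.

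Libraries differed within groups. Depth was 48225044 to 51141996 tags in TNFDEX and 39228805 to 46425427 in DEX, and the TNFDEX lists held 22590, 8641 and 14043 peaks in replicates 1, 2 and 3, against 10480, 13021 and 12955 in DEX. The strongest mitochondrial peak had 36246.9 to 54518.7 normalized tags (the authors' tags per 20000000) in 5 libraries, namely NI 3, DEX 3, TNF 2, TNFDEX 2 and TNFDEX 3, and at most 6953.2 in the other 6. DEX and TNFDEX are therefore unevenly made up in this respect, with 1 of 3 and 2 of 3 libraries of the high kind. Both DEX replicate 3 and TNFDEX replicate 2 decide much of the set, as given below. Every level below is a normalized tag count, and where a library lacks a peak its level is not known and cannot be taken as 0.

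Of the 233 sites, 9 overlapped a promoter window of the RefSeq table (GRCm38.p6, the coordinates of mm10), which covers 250 bases before to 50 after a transcription start. Windows of 11 genes were touched, 7 of them protein-coding. The starts used were incomplete, as given below, so the counts of sites and windows can be too low. The promoters of Fgb, Steap4 and Kng2 are shown because the site centres lay 137, 108 and 78 bases upstream of these starts and because all 3 are liver or inflammation genes. Kif15 and the non-coding Gm34994 also had site centres upstream of their starts, by 123 and 20 bases, and are not shown. Fgb encodes the fibrinogen beta chain, Steap4 a metalloreductase of inflammation and iron handling, and Kng2 a kininogen of plasma. The last line shows the strongest site of the set, at the start of the non-coding Gm34401. Each of the first 3 lines gives the 250 bases before the start and the last line the 90 bases before the start that lie inside the site, 5′ to 3′ in the direction of the gene. Capitals mark motif matches.
Fgb, minus strand, chr3:83049864-83050113: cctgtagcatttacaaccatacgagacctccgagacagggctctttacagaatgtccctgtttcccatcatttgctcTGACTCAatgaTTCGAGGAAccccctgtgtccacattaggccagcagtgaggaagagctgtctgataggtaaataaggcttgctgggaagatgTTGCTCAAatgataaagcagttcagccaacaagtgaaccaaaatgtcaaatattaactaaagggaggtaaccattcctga
Steap4, plus strand, chr5:7960222-7960471: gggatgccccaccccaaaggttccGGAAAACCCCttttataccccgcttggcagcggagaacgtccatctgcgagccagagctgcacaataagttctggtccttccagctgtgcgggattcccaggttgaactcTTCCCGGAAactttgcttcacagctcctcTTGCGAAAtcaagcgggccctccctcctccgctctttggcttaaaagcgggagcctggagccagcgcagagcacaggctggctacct
Kng2, minus strand, chr16:23029102-23029351: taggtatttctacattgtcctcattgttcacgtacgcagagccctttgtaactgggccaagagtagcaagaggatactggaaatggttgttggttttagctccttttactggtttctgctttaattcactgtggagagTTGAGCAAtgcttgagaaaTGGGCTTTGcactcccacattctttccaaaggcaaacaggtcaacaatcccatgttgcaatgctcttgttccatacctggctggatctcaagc
Gm34401, minus strand, chr2:75285458-75285547: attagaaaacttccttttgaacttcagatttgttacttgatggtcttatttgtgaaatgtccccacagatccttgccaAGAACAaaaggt

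The Fgb promoter held an AP-1 match (TGACTCA, motif TGANTCA), a C/EBP match (TTGCTCAA, motif TTGCNNAA) and a STAT match (TTCGAGGAA, motif TTCNNNGAA), all inside the site. Steap4 held a STAT match (TTCCCGGAA) and a C/EBP match (TTGCGAAA) inside the site, and an NF-kB match (GGAAAACCCC) only partly inside it. Kng2 held a C/EBP match (TTGAGCAA, the other strand) and an HNF4 match (TGGGCTTTG, the other strand of motif CAAAGNNCA). Gm34401 held a single GR hexamer (AGAACA) that lay 12 to 7 bases before its start. The touched windows that are not shown held no match to any motif searched. Both strands were searched. In none of the 11 windows touched did the searched bases hold the GR palindrome, with its pair of hexamers on facing strands, or the FOX motif TGTTTAC.

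Such matches are short and occur by their letters alone. Among the 250 bases before all 32851 starts of the table, 9.56% held the C/EBP motif, against 3 of the 11 touched here. The STAT motif stood in 7.02% of all and 2 of the 11, AP-1 in 6.75% and 1, HNF4 in 5.49% and 1, NF-kB in 1.41% and 1, and the GR hexamer in 16.1% and 1. The palindrome stood in 0.0609% of all starts and FOX in 3.17%. The 11 windows belong to 9 sites, so some share a site, and in only 9 of the 11 did searched bases lie inside the site. Counts this small are a description of these promoters and nothing was drawn from them about any factor. Most sites lay outside these windows, and their sequence was not analysed here. The starts used were incomplete. No protein-coding start was available on chromosome 18, which holds 7 sites, those nearest to Lims2, Zfp24, Slc12a2, Atp8b1, Fbn2, Prr16 and Htr4. Gaps were present on other chromosomes too. For the sites inside Rad54b and Ephx2, for example, the nearest available start lay 7073.6 and 3058.2 kb away. For those inside St3gal1 it lay 3269.1 and 3268.3 kb away, and for that inside Cngb3 2374.7 kb away. A promoter whose start is missing could not be counted as touched.

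Within the set the sites at Fgb and Steap4 were of middling height, and those at Kng2 and Lcn2 were lower. At Fgb (chr3:83049892-83050108) the levels were 18.2, 9.8 and 23.0 in TNFDEX replicates 1, 2 and 3, with a mean of 17.0 ± 6.68 (SD, n = 3), and no NI, DEX or TNF library had a call. The same site lay 16.4 kb from Fga and 34.9 kb from Fgg, the other fibrinogen chain genes. The closest DEX peak was 901 bp from the site, in a region called in DEX 3 alone (11.6) and in TNFDEX 1 (14.9). At Steap4 (chr5:7960251-7960478) the levels were 20.7, 10.2 and 13.6, a mean of 14.8 ± 5.36. At Kng2 (chr16:23029071-23029287) they were 14.1, 8.6 and 12.3. TNFDEX replicate 2 was lowest at each of these 3 sites. A site 0.6 kb from Lcn2, which encodes the siderophore-binding lipocalin 2 (chr2:32388193-32388404), had 10.8, 9.0 and 10.3 (mean 10.0 ± 0.929), the closest spread among the acute phase sites.

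In all, 5 of 24 acute phase genes had a site of the set within 50 kb (3 distinct sites), against 1.41% of 21900 protein-coding genes. For TNF signalling and feedback genes the count was 2 of 20. One site lay 6.8 kb from Tnfaip3, whose product A20 restrains NF-kB signalling (chr10:19022132-19022370, with 13.3, 7.8 and 7.4). A second site nearest to Tnfaip3 lay 65.0 kb from the first. The other gene was Cflar, which encodes the caspase-8 regulator c-FLIP, with a site inside its span (chr1:58742471-58742753, with 24.5, 9.8 and 13.6). No region called in at least 2 DEX libraries lay within 50 kb of Cflar, nor of Lcn2, but a peak of 1 DEX library lay 18990 bp from the Cflar site and another 16575 bp from the Lcn2 site.

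Among NF-kB subunits and inhibitors 1 of 14 genes had a site. It was Nfkbia, the gene of the inhibitor IkBa, with the site 43.6 kb away and nearest to Psma6 (chr12:55445710-55445897, with 14.1, 9.8 and 16.4, mean 13.4 ± 3.35). Among chemokines and cytokines 1 of 18 had one, inside Il34, which encodes a ligand of the CSF1 receptor (chr8:110803091-110803287, with 16.2, 8.2 and 13.2). AP-1 and immediate early genes had 2 of 24, namely the transcription factor genes Klf6 at 29.3 kb (mean 15.5 ± 4.65) and Egr3 at 24.6 kb (11.8 ± 1.75), where the nearest gene was Bin3. None of these sites had a call in an NI or TNF library.

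Other lists had no gene with a site within 50 kb. These were the 28 glucocorticoid response genes, 26 of which had a region called in at least 2 DEX libraries within 50 kb, and the 18 C/EBP and hepatocyte factor genes, 15 of which had one. Of all 21900 protein-coding genes 36.5% had such a DEX region, and so did 10 of 20 TNF signalling genes, 10 of 24 acute phase genes and 15 of 24 AP-1 genes. The count of genes with a site was also 0 for 22 interferon, STAT and SOCS genes, 16 adhesion and inflammatory effector genes, 19 genes of GR and its coregulators, 12 macrophage markers, and 12 endothelial and stromal markers. Only 1.41% of all protein-coding genes had a site within 50 kb. A count of 0 in lists this short therefore does not show that the sites avoid these genes. Over all lists, 11 of 222 genes (4.95%) had a site, through 9 sites. ChIP-seq peaks do not measure expression, so the labelled hepatoma identity could not be checked on marker levels. Neighbouring genes share sites, and the lists were made with earlier results of these data known, so these counts have no test. They rest mostly on weak sites, since with peaks of at least 10 normalized tags 3 list genes had a site, with at least 15 tags 1 had, and with lists of equal length 4 had.

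The strongest site of the set stood at the start of Gm34401, 166.5 kb from the nearest protein-coding gene, Gm50595 (chr2:75285359-75285547). Its levels were 49.4, 57.1 and 89.6, a mean of 65.4 ± 21.3 (SD, n = 3). A site inside Ptprr, which encodes a tyrosine phosphatase that acts on MAP kinases (chr10:116100005-116100192), had 49.8, 45.8 and 75.7. A further site nearest to Ptprr lay 39.4 kb away (12.4, 10.6 and 10.3). Both lay over 10 kb from any DEX peak, with the nearest to the stronger at 12.7 kb.

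A site 3.6 kb from Il7r, the gene of the interleukin-7 receptor alpha chain (chr15:9533390-9533596), had 25.7, 31.7 and 50.2. A site 1.6 kb from Cant1, which encodes a nucleotidase (chr11:118404577-118404768), had 44.0, 28.2 and 46.1. Inside Tgm2, the transglutaminase 2 gene (chr2:158130403-158130608), the levels were 51.0, 14.1 and 44.8, the widest relative spread among the 20 strongest sites by the ratio of SD to mean. TNFDEX replicate 2 was below both other TNFDEX libraries there, as at 16 of these 20 sites.

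**Figure D1:**
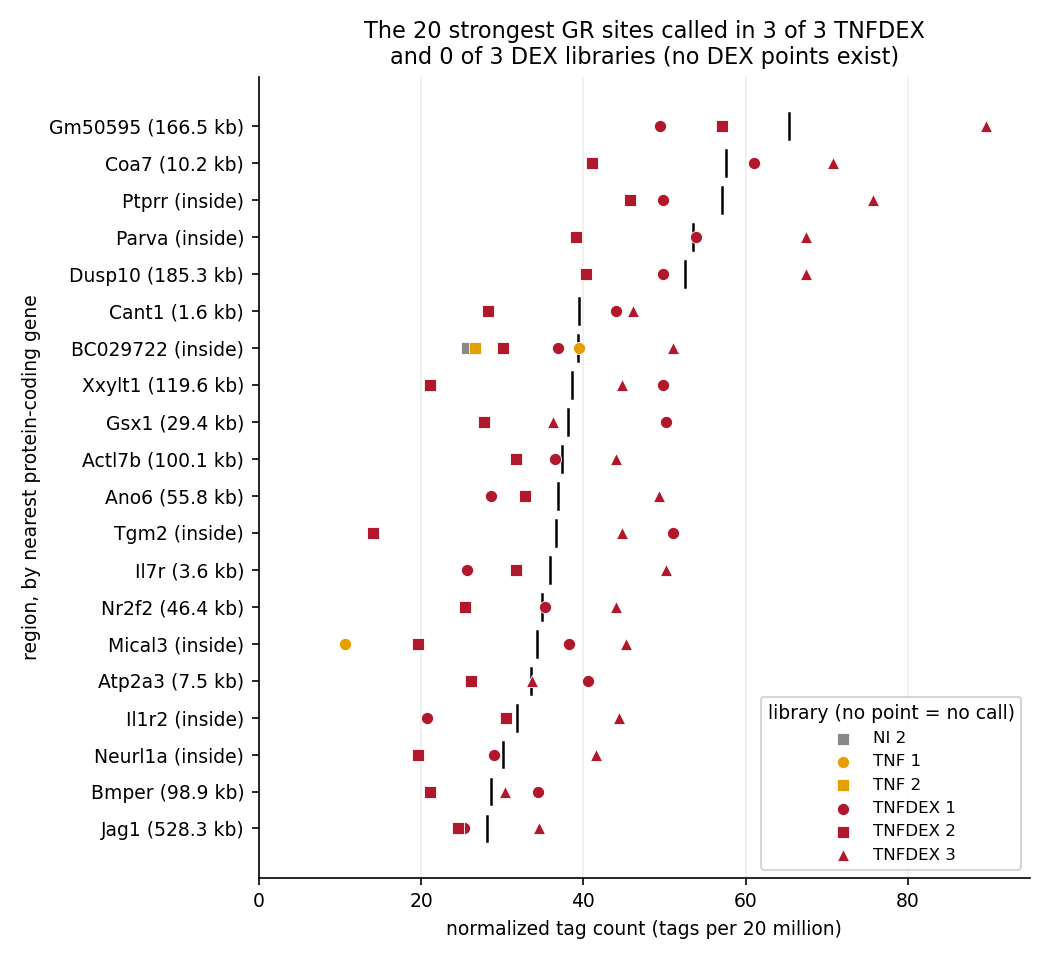
Normalized tag counts (horizontal axis) of the 20 strongest sites, named by the nearest protein-coding gene with its distance. Points are single libraries, black bars are TNFDEX means, and a library without a point has no call. TNFDEX replicate 3 is highest at 15 of the 20, and only the sites at BC029722 and Mical3 have points outside TNFDEX.

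Several of the strongest sites lay beside a DEX peak. Of the 20 strongest, 6 had a DEX peak centre within 600 bp and 7 within 1 kb, against 5 and 9 of the other 213. The regions holding those DEX peaks, 16 in all, were of different kinds. At 5 of them no TNFDEX library had a call. The site near Gsx1, a homeobox gene (chr5:147159182-147159378, with 50.2, 27.8 and 36.2), had DEX calls of 25.8 and 32.6 in a region 198 bp away and no TNFDEX call there. The sites near Ano6, which encodes a phospholipid scramblase (chr15:96031147-96031354, mean 36.9), and Atp2a3, an endoplasmic calcium pump gene (chr11:72953532-72953718, mean 33.5), likewise had DEX calls at 339 and 302 bp where TNFDEX had none. In these 3 places both groups held GR peaks, DEX in 2 of 3 libraries, centred 198 to 339 bp apart, so the absence of a DEX call in the site itself does not show absence of GR from the locus.

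At 5 other neighbouring regions every TNFDEX library had a call too. The site 46.4 kb from Nr2f2, which encodes the nuclear receptor COUP-TFII (chr7:70305459-70305649, with 35.3, 25.4 and 44.0), lay 424 bp from a region with 32.2, 30.1 and 33.6 in DEX and 72.2, 45.8 and 78.5 in TNFDEX. The site 10.2 kb from Coa7, a cytochrome oxidase assembly factor gene (chr4:108317827-108318003, with 61.0, 41.1 and 70.7), lay 971 bp from a region with 97.2, 110.1 and 150.3 in DEX and 248.0, 151.3 and 250.8 in TNFDEX. In both places the neighbour was higher in each TNFDEX library than in each DEX library. The site nearest to Dusp10, a phosphatase gene of p38 and JNK signalling (chr1:184260865-184261041, with 49.8, 40.3 and 67.4), lay 185.3 kb from that gene. Its neighbour, 359 bp away, had 18.4 in DEX 2 and 46.4 in TNFDEX 1.

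Away from these, 155 of the 233 sites were over 10 kb from any DEX peak, and the median distance was 26.2 kb. A DEX peak lay within 10 kb of 33.5% of the set and of 33.2% of the 1298 regions called in 2 of 3 TNFDEX and 0 of 3 DEX libraries. A region called in all 6 TNFDEX and DEX libraries lay within 50 kb of 32.2% of the set and of 29.6% of all merged regions, these 6-library regions included. No test of these shares was run.

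The interleukin-1 receptor genes held 2 sites of the set on chromosome 1. Il1r2 encodes a decoy receptor that binds interleukin-1 without signalling, and Il1rl2 the receptor of interleukin-36. The site inside Il1r2 (chr1:40108501-40108686) had 20.7, 30.5 and 44.4 (mean 31.9 ± 11.9). The site inside Il1rl2 (chr1:40339473-40339672) had 19.9, 19.2 and 26.3 (mean 21.8 ± 3.91), and it is named here after its values were seen. Neither had a call in any NI, DEX or TNF library.

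About 1.4 kb from the Il1r2 site, a region inside the same gene (chr1:40109905-40110107) had 66.4, 57.9 and 134.5 in TNFDEX and 14.3 and 45.7 in DEX 2 and DEX 3. Every TNFDEX value there exceeded both DEX values. A region further along (chr1:40156170-40156400) was called in all 6 libraries, with 51.8, 27.8 and 62.5 in TNFDEX and 12.9, 21.9 and 66.3 in DEX, and there the groups overlapped.

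**Figure D2:**
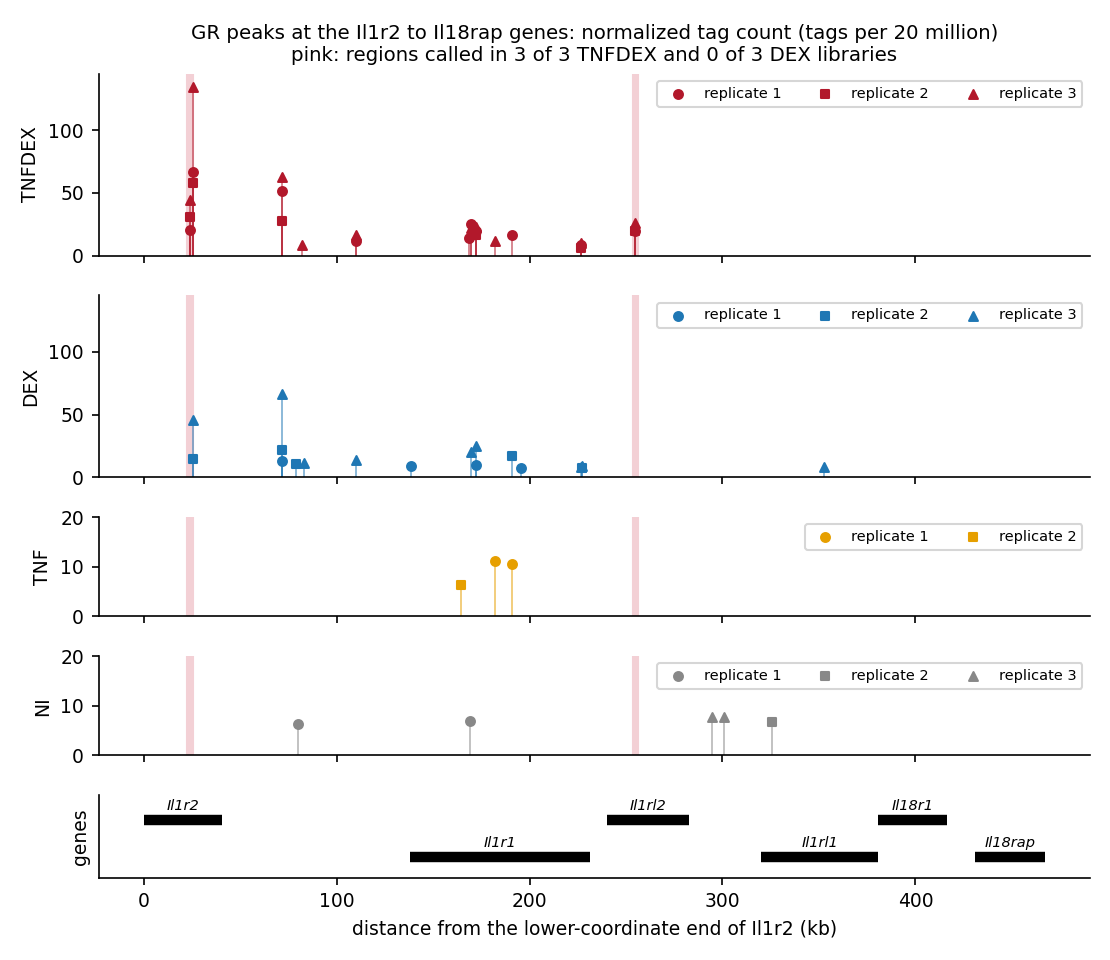
Peaks from Il1r2 to Il18rap on chromosome 1, with distance from the lower-coordinate end of Il1r2 in kb (horizontal axis) and normalized tag count (vertical axes, 1 panel per group, with smaller ranges for TNF and NI). Pink bands mark the sites at 23.9 and 254.9 kb, where DEX, TNF and NI have no peak inside the site. The DEX points in the first band belong to the separate region at 25.3 kb.

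Levels across the whole set were low. The TNFDEX mean per site ran from 6.80 to 65.4 with a median of 13.2 and quartiles of 10.3 and 17.5. The 4023 regions called in all 6 TNFDEX and DEX libraries had a median of 34.2, and the 706 regions called in 3 of 3 TNFDEX and 1 of 3 DEX libraries one of 14.3. Of the 233 sites, 47 had a TNFDEX mean of at least 20, and at 20 every TNFDEX library reached that level. The weakest, 724.6 kb from its nearest gene Rpia, had 7.1, 5.9 and 7.4, close to the lowest call that a DEX list holds (5.9 to 6.6). At such sites a small change in tags decides a call. Per library, the medians were 15.3, 10.2 and 14.0 in TNFDEX replicates 1, 2 and 3.

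Replicate 1 was highest at 123 of the sites, replicate 3 at 105 and replicate 2 at 5. Over the 4023 regions these shares were 67.5%, 32.4% and 0.0497% for replicates 1, 3 and 2, so replicate 2 was seldom highest there as well. Within the set the median fold over the input was 11.8 and over the surrounding DNA 7.41, by the authors' values for single peaks. The 4023 regions had 23.4 and 14.9. The median input tag count was 1.0 in the set and 2.0 in the 4023 regions, so the folds over the input rest on very few input tags.

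**Figure D3:**
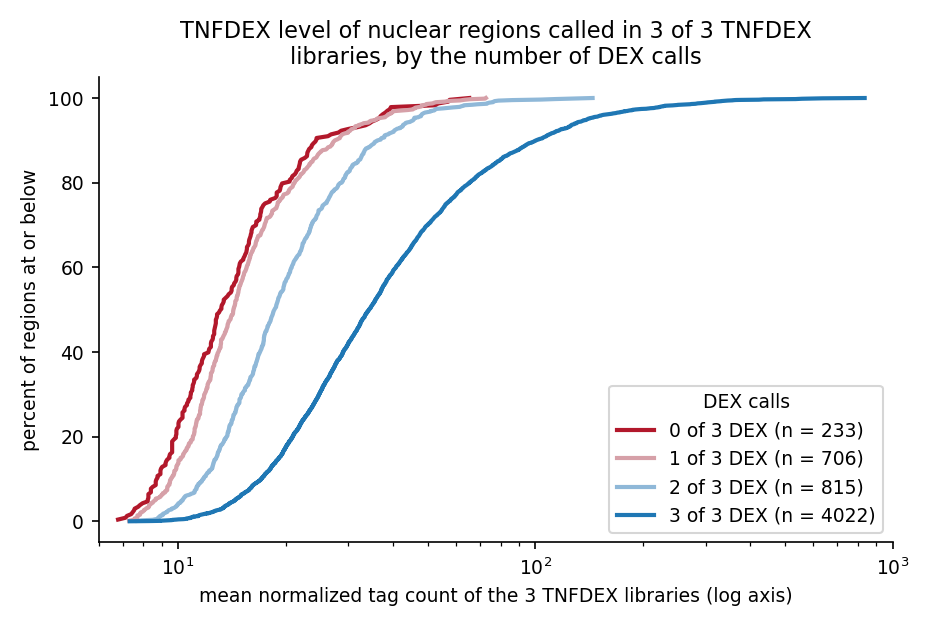
Cumulative percent of nuclear regions called in 3 of 3 TNFDEX libraries (vertical axis) by their mean TNFDEX normalized tag count (horizontal log axis), with a curve per number of DEX calls. The curve for 0 DEX calls (233 regions, median 13.2) lies just left of that for 1 DEX call (706 regions, median 14.3), and the curve for 3 DEX calls lies far to the right.

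Regions that missed the rule by 1 library mostly missed it through DEX 3 or TNFDEX 2. Of the 706 regions called in 3 of 3 TNFDEX and 1 of 3 DEX libraries, DEX 3 was the calling library in 619, DEX 2 in 65 and DEX 1 in 22. The single DEX value was above the TNFDEX mean in 406 of them. Of the 1298 regions called in 2 of 3 TNFDEX and 0 of 3 DEX libraries, TNFDEX 2 lacked the call in 1022. The strongest of the 706 lay inside Syt1, which encodes a synaptotagmin (chr10:108538673-108538953), with 80.5, 46.5 and 91.3 in TNFDEX, 11.7 in DEX 2 and 14.7 in TNF 1. A region inside Irak3, the gene of a kinase-like inhibitor of interleukin-1 receptor signalling (chr10:120201606-120201797), had 62.2, 40.7 and 86.8 in TNFDEX and 52.6 in DEX 3, so there the groups overlapped.

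The number of sites moved with the libraries used. Without DEX replicate 3 the count was 852, with 267 in the opposite pattern, and without TNFDEX replicate 2 it was 1255 with 23. Without TNFDEX replicate 1 it was 380 with 310. When each of the 6 lists was limited to its 8641 strongest peaks, 102 regions were called in TNFDEX alone and 69 in DEX alone. The excess over the opposite pattern was thus much smaller with lists of equal length.

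A split by mitochondrial signal, chosen after seeing the data, gave opposite balances. Among libraries with a low signal, 11617 regions were called in TNFDEX 1 and in neither DEX 1 nor DEX 2, against 356 in the reverse. Among those with a high signal, 581 were called in TNFDEX 2 and 3 and not in DEX 3, against 3552 in the reverse. The numbers of libraries required differ between the sides, and TNFDEX 1 holds 22590 peaks and TNFDEX 2 holds 8641. The 233 sites are those that meet both conditions, by construction.

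**Figure D4:**
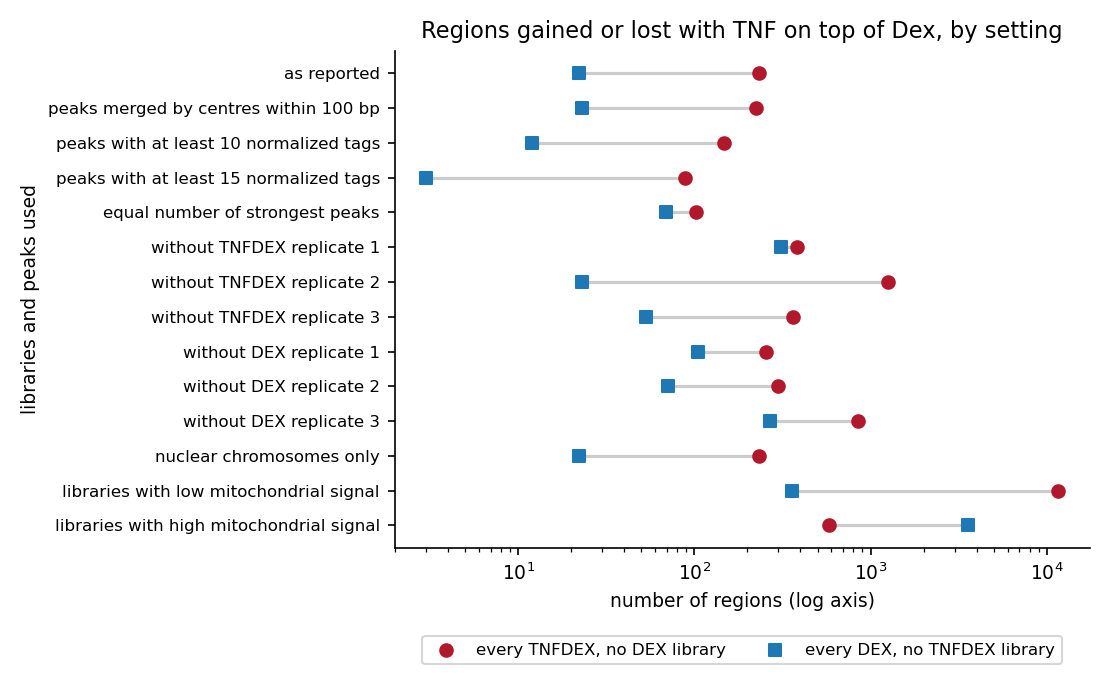
Number of regions (horizontal log axis) called in every TNFDEX and no DEX library (red circles) or the reverse (blue squares), for each choice of libraries and peaks (rows). Circles lie right of squares in every row but that of the libraries with high mitochondrial signal, where 581 stands against 3552.

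Calls in NI and TNF did not enter the rule. In NI libraries 1, 2 and 3 the set had 5, 4 and 0 calls of 233, which is 2.15% (exact 95% binomial interval 0.70% to 4.94%), 1.72% (0.47% to 4.34%) and 0% (0% to 1.57%). By the separate limit of 3 counts of the total, 0 of 233 allows up to 1.29%. In TNF libraries 1 and 2 it had 19 and 4 calls, 8.15% (4.98% to 12.4%) and 1.72%. Over all merged regions, NI 1, 2 and 3 had calls in 11.5%, 13.7% and 5.31%, and TNF 1 and 2 in 18.8% and 8.70%, so the set was below that share in each of the 5 libraries and TNF 1 had the most calls in both. These intervals cover counting error only. In all, 20 sites (8.58%) had a call in at least 1 TNF library, against 25.6% of all merged regions, which count each library's own peaks. At least 1 NI library had a call at 7 sites (3.00%), against 25.8%. Low shares were not particular to the set. Of the 706 regions called in 3 of 3 TNFDEX and 1 of 3 DEX libraries, 9.77% had a TNF call and 3.54% an NI call. Of the 1298 called in 2 of 3 TNFDEX and 0 of 3 DEX libraries, 14.3% and 5.39% had one. Of the 4023 regions called in all 6 TNFDEX and DEX libraries, 38.5% had a TNF call and 29.1% an NI call, and those regions were also stronger. Whether these shares differ at equal strength was not tested.

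In neither NI nor TNF did 211 of the 233 sites have any call, a joint count that was not taken for other regions. By the separate shares above, few calls in NI or TNF were not particular to the set. Calls in TNF were mostly weak. Averaged over the TNF libraries with a call, the level had a median of 9.1 at the 20 sites. The median of their TNFDEX means was 13.4, and 17 of the 20 had a TNF level below the TNFDEX mean. The others, all called in TNF 1 only, were nearest to Papss1, Nlk and Mettl15. Their TNF 1 levels were 27.4, 17.7 and 13.2, against TNFDEX means of 15.8, 15.4 and 11.3. At Papss1, TNF 1 was above every TNFDEX library (26.5, 9.0 and 11.9), and NI 2 had 16.9.

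The strongest site with a call outside TNFDEX spanned the start of BC029722, a protein-coding gene of unnamed product (chr2:155819032-155819322). It had 36.9, 30.1 and 51.0 in TNFDEX, 39.5 and 26.6 in TNF, and 25.6 in NI 2, so the TNF and TNFDEX values overlapped. A site inside Robo1, an axon guidance receptor gene (chr16:72679078-72679327), was the single site that both TNF libraries called while NI did not, with 10.6 and 6.9 in TNF and 11.6, 6.6 and 10.7 in TNFDEX. No site was called in 3 of 3 NI libraries. Inside Gmps, a guanine nucleotide synthesis gene (chr3:63976160-63976413, chosen after its values were seen), the levels were 12.4 and 11.6 in NI 1 and 2, 9.1 in TNF 1, and 9.5, 11.3 and 9.0 in TNFDEX, all close together.

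**Figure D5:**
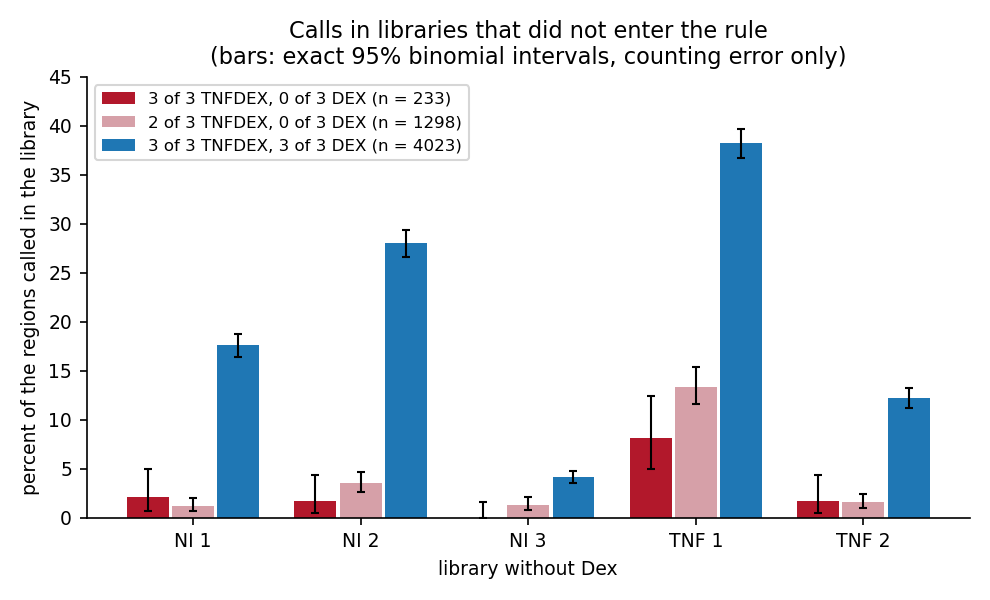
Percent of regions called (vertical axis) in each NI and TNF library for the 233 sites (red), for regions called in 2 of 3 TNFDEX and 0 of 3 DEX libraries (pink) and for regions called in all 6 (blue), with exact 95% binomial intervals. The red bars reach 8.15% in TNF 1 and stay at or under 2.15% elsewhere, and the blue bars are above the red ones in every library.

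Because NI 3 had no call in the set, none of the 233 sites was among the 152 regions called in all 5 NI and TNF libraries. The signal test of TNF against NI, limma on log2(normalized tag count) with Benjamini-Hochberg adjustment, therefore says nothing about the set. It called 0 of 152 regions (0%). The smallest adjusted p from limma was 0.996, and before adjustment 0 regions had a p below 0.05.

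The set lay mostly away from gene ends. Of the 233 sites, 102 (43.8%) were inside a protein-coding gene span, 12 (5.15%) within 1 kb of either end of one, and 64 (27.5%) beyond 50 kb of any. The regions called in all 6 TNFDEX and DEX libraries had 41.0%, 3.98% and 28.4%, and all merged regions 48.3%, 12.6% and 24.8%. Exons and introns were not separated because the gene table holds spans only. Chromosome 2 held the most sites, 29 (12.45%, against 8.94% of all merged regions), and chromosome 1 held 28 (12.02% against 9.46%). These were not the only departures. Chromosomes 16 (6.01% against 3.18%) and 14 (3.43% against 2.07%) were also above their share. Chromosomes 15 (3.86% against 6.57%) and 17 (1.72% against 4.08%) were among those below it. No site was mitochondrial. Within 100 kb of each other lay 8 neighbouring pairs, among them those at Tnfaip3, Ptprr, Dock10, Spred1 and Rad51b, and pairs 0.8 and 0.9 kb apart nearest to St3gal1 and Slc13a1.

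The remaining sites among the 20 strongest were spread over genes of varied function. They lay inside Parva (a focal adhesion gene, mean 53.5 ± 14.2), Mical3 (34.3 ± 13.2, with 10.6 in TNF 1) and Neurl1a (an E3 ubiquitin ligase gene, with 29.0, 19.6 and 41.5). Others lay far from their nearest gene, at 119.6 kb from Xxylt1 (38.6 ± 15.3), 100.1 kb from Actl7b (36.5, 31.7 and 44.0), 98.9 kb from Bmper, a regulator of bone morphogenetic proteins (28.6 ± 6.82), and 528.3 kb from the Notch ligand gene Jag1 (28.1 ± 5.52). At Actl7b a region 551 bp away was called in 3 of 3 DEX libraries (32.2, 55.6 and 71.9), in TNFDEX 1 and 3 (49.4 and 58.4), in NI 2 (21.7) and in TNF 1 (27.9).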

How the data were processed

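GR ChIP-seq peak lists of 11 libraries (3 NI, 3 DEX, 2 TNF, 3 TNFDEX) were used, with groups from the sample titles. The input library was not analysed here by itself. The submitters' processing notes name HOMER 4.6, Bowtie 1.0.0, CASAVA 1.8 and build mm10. How reads were trimmed or duplicates treated is not given in the sources used here. In the authors' runs, per the file headers, findPeaks was used in factor mode per library against 1 input, with a false discovery rate of 0.001 and at least 4-fold tags over the input and over the surrounding 10000 bp, at a Poisson p of 0.0001. The deposited signal is the normalized tag count (tags per 20000000). Further columns, per the file headers, are ratios (fold over input and surroundings), p-values, a peak-focus ratio given as a fraction and a findPeaks score. The authors' folds served only to describe peaks. The authors' p-values, fractions and scores were not used further.

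Peaks sharing at least 1 bp were merged, and the largest peak of a library was taken in each region. Distances run from the region centre to spans of 21900 protein-coding genes (RefSeq, GRCm38.p6). The members and the 12 gene lists (222 genes, all matched) were chosen with earlier results of these data known. Named were the 20 strongest members, up to 4 list genes per list, members that both TNF libraries and no NI library called, and members called in 3 of 3 NI libraries. Kng2, Gm34401, Il1rl2, Gmps, Papss1, Nlk, Mettl15 and members beside DEX peaks or weak members were named after their values were seen. The planned motif shares of all regions were replaced by those of promoters, since genome sequence was not used here. The limma test (limma 3.58.1, R 4.3.3, scaling by trimmed mean of M values) was first run on simulated data. That simulation gave all libraries the same spread and held more regions than the 152 tested. It therefore does not show what the test can detect in these libraries. Other calculations used Python 3.11.15, pandas 2.3.3 and scipy 1.17.1. Alternatives are in the closing section. A peak of few tags has a large counting error. Replicate numbers were not shown to pair samples.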

Additional observations from a re-analysis of the deposited data

How the results depend on the processing

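The count of 233 sites was 225 with peaks merged by centre, 221 without sites that had a DEX peak within 500 bp, and 233 on nuclear chromosomes. It was 147 with peaks of at least 10 normalized tags, 88 with at least 15, and 102 with an equal number of strongest peaks per library. It was 11617 among libraries with low and 581 among those with high mitochondrial signal (added after seeing the data). Leaving out each TNFDEX or DEX replicate in turn gave 255 to 1255, where 380, 1255 and 362 belong to TNFDEX replicates 1, 2 and 3 and 852 to DEX replicate 3. The rule then asks less, so the count can only grow. The percent of sites called in at least 1 TNF library was 4.76% with at least 10 tags and 6.92% to 15.1% over left-out replicates. For NI it was 0.68% and 1.14% with at least 10 and 15 tags and 2% to 6.35% over left-out replicates. The percent within 1 kb of a gene end was 1.14% with at least 15 tags and 4.93% to 7.18% over left-out replicates. List genes with a site within 50 kb numbered 3 and 1 with at least 10 and 15 tags, 4 with equal numbers of peaks, 6 within 10 kb, and 13 to 38 over left-out replicates, the highest without TNFDEX replicate 2. In limma, TNF against NI stayed at 0 calls under library totals, the replicate block, a mean of at least 20 tags, a pseudocount of 1 and each left-out NI replicate, with smallest adjusted p of 0.919 to 0.999. Without TNF replicate 1 or 2 it was also 0 (0.529 and 0.766), but 1 TNF library then remains, which is assumed to vary like NI. Deviations of same-numbered NI and TNF libraries correlated at 0.51 for number 1 and -0.65 for number 2. With 2 TNF libraries their deviations are mirror images, so these values are not independent and cannot show whether the numbers pair samples. The cause of these shifts was not tested beyond what each setting itself removes.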

Other observations

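The opposite pattern, a call in 3 of 3 DEX and 0 of 3 TNFDEX libraries, held few sites of similar strength. The strongest lay 5.0 kb from Usp18, which encodes a deubiquitinase-like brake on interferon signalling (chr6:121240799-121240976, with 29.7, 38.2 and 40.5 in DEX replicates 1, 2 and 3, mean 36.1 ± 5.69), followed by a site inside the potassium channel gene Kcnh1 (34.7, 29.6 and 32.3, with 27.4 in TNF 1). A site 0.7 kb from Adm, the adrenomedullin gene, had 10.9, 17.3 and 13.4. Of these 22 regions 36.4% lay within 1 kb of a gene end, against 5.15% of the 233 sites called with TNF plus Dex, with no test of the difference. At least 1 TNF library had a call at 12 of the 22 (54.5%) and at least 1 NI library at 10 (45.5%), against 25.6% and 25.8% of all merged regions.

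Signalling genes outside the lists, picked after their values were seen, also had sites called in TNFDEX and not in DEX. A site inside Irak2, a kinase gene of interleukin-1 receptor signalling (chr6:113661543-113661759), had 31.5, 15.3 and 33.7, with a region 397 bp away called in 3 of 3 DEX libraries, in TNFDEX 1 and 3 (both above every DEX value there), in NI 1 (9.4) and in TNF 1 (16.7). A site inside Map2k3, which encodes a kinase upstream of p38 (chr11:60935245-60935444), had 15.3, 19.9 and 36.6, and the nearest DEX peak was 124.3 kb away. A site nearest to Tank, a regulator of TRAF signalling (chr2:61567515-61567823), had 10.8, 9.4 and 9.9 in TNFDEX and 7.8 in TNF 2.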
